A study of Mus musculus with 39 samples.

Results

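The subunits of the mitochondrial respiratory chain and of the ATP synthase that are encoded in the nucleus were followed through mouse oocyte maturation and preimplantation development, and after a short exposure of the zygote to either of the HDAC inhibitors (HDACi) T247 and MGCD0103. The genes were taken by the name given to each microarray probe: the Nduf series of complex I (a, b, c, s and v), Sdha to Sdhd of complex II, names that begin with Uqcr for complex III, Cox4 to Cox8 for complex IV, and names that begin with Atp5 for the ATP synthase. This gave 85 genes with 128 probes among the 22339 named genes of the array. By their current names, 82 of the 85 encode subunits, while Emc8 (listed on the array as Cox4nb), Dmac2 (Atp5sl) and Dmac2l (Atp5s) encode other proteins. Ndufa4 and its paralogue Ndufa4l2 are counted by name with the accessory subunits of complex I, although the Ndufa4 protein is now known to associate with complex IV. Cyc1, which encodes the cytochrome c1 of complex III, is not among the 85, since its name does not begin with Uqcr. In the tests, 83 of the 85 genes passed the detection filter: 7 core and 30 accessory subunits of complex I, 4 of complex II, 8 of complex III, 16 of 18 of complex IV, 15 of the ATP synthase, and the 3 others.

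In the inner mitochondrial membrane, complexes I and II feed electrons from NADH and succinate to ubiquinone, complex III passes them on to cytochrome c, and complex IV hands them to oxygen. Complexes I, III and IV pump protons, and the ATP synthase uses the gradient to make ATP. Most subunits are encoded in the nucleus and a small group in mitochondrial DNA, while all complex II subunits are nuclear. Oocytes and cleavage-stage embryos are known to rely on pyruvate and mitochondrial respiration, and the embryo inherits its mitochondria from the oocyte. Around the blastocyst stage, respiration and glucose use are known to increase.

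RNA from 39 pools of 100 oocytes or embryos each was hybridised to 39 single-colour Agilent arrays, 3 for each of 13 conditions. The control series held germinal vesicle (GV) and metaphase II (MII) oocytes and 1-cell, 2-cell, 4-cell and 8-cell embryos, morulae and blastocysts. Embryos came from in vitro fertilisation of B6D2F1 oocytes (dams of 8 to 9 weeks) with ICR sperm (sires of 15 to 20 weeks). T247, which is known as a selective inhibitor of HDAC3, or MGCD0103, which acts mainly on class I HDACs, was given at 10 µM for 6 h from 4 h after insemination. T247 embryos were collected as 1-cell, as 2-cell and as 4-cell embryos 12, 24 and 48 h after insemination, and MGCD0103 embryos at the 1-cell and 2-cell stages. The study describes the samples of a condition as independent biological replicates, while the labels name no culture or animal for an array. Since each array measured pooled embryos, fewer cells and less RNA per cell cannot be told apart.

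Values are log2 of the processed signal after normalization, one probe per gene, and a level of one gene cannot be set against that of another. LFC is the difference of the means of 3 arrays on the log2 scale. A gene counted as differentially expressed (DEG) where limma, run across 14828 genes, gave a Benjamini-Hochberg adjusted p under 0.05 and the LFC reached 1 or -1. Consecutive steps of the control series share arrays, and so do T247 and MGCD0103 at a stage, since both were compared with the same 3 controls. Control replicates 1, 2 and 3 lay on slides 1, 2 and 3, but T247 arrays lay on slides 4 and 5 and MGCD0103 arrays on slide 6, so treatment and slide cannot be told apart. Stage markers followed the labels in summed level (log2 above the 75th percentile of the array). That of 10 oocyte markers lay at 11.6 to 11.7 in GV oocytes and at 1.18 to 1.46 in blastocysts. That of 8 measured 2-cell markers lay at 8.60 to 9.45 in 2-cell and 5.71 to 5.94 in 4-cell controls. All 8 were well above background on every 2-cell control array, but also on every 4-cell and 8-cell control array. Of 10 cumulus and granulosa markers, 6 were well above background on all GV arrays and 3 on all MII arrays. Of 8 sperm markers, 3 were so on all GV arrays and 1 on all MII arrays. Which cells gave these signals was not tested.

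One library stood apart. The 2-cell control replicate 1 correlated with the other 2-cell controls at r = 0.934 and 0.944 over all genes, against 0.995 between replicates 2 and 3. Over the respiratory chain genes the corresponding r was 0.893 and 0.912, against 0.996. The median gene of the chain differed by 0.574 (log2) between replicate 1 and the mean of the other two, and by 0.143 between replicates 2 and 3. The genes furthest below the other controls in that library were Ndufv3 (-3.16), Ndufc1 (-2.25) and Ndufa11 (-1.94), and those furthest above were Ndufa8 (1.99), Sdha (1.91) and Cox6c (1.84). Counts and LFCs that rest on the 2-cell controls are therefore mostly given both with and without this library, a choice made after seeing the data.

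The chain genes were high in GV oocytes, low from MII to the 4-cell stage, and high again in blastocysts. Relative to the GV mean, the median gene lay at -3.54 in MII oocytes, -3.04 in 1-cell, -3.51 in 2-cell and -2.03 in 4-cell embryos. It then lay at -1.36 in 8-cell embryos, -0.24 in morulae and 0.47 in blastocysts. The median LFC of all genes was -0.97 from GV to MII and moved with the scaling, as given for that step below. Of the 83 genes, 79 (95.2%) had their lowest control mean between MII and the 4-cell stage, 37 of them at the 2-cell stage, against 68.9% of all genes tested. The highest mean lay in blastocysts for 56 genes (67.5%, against 21.7% of all genes) and in GV oocytes for 25 (30.1%, against 39.2%). These shares are a description without a test.

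**Figure D1:**
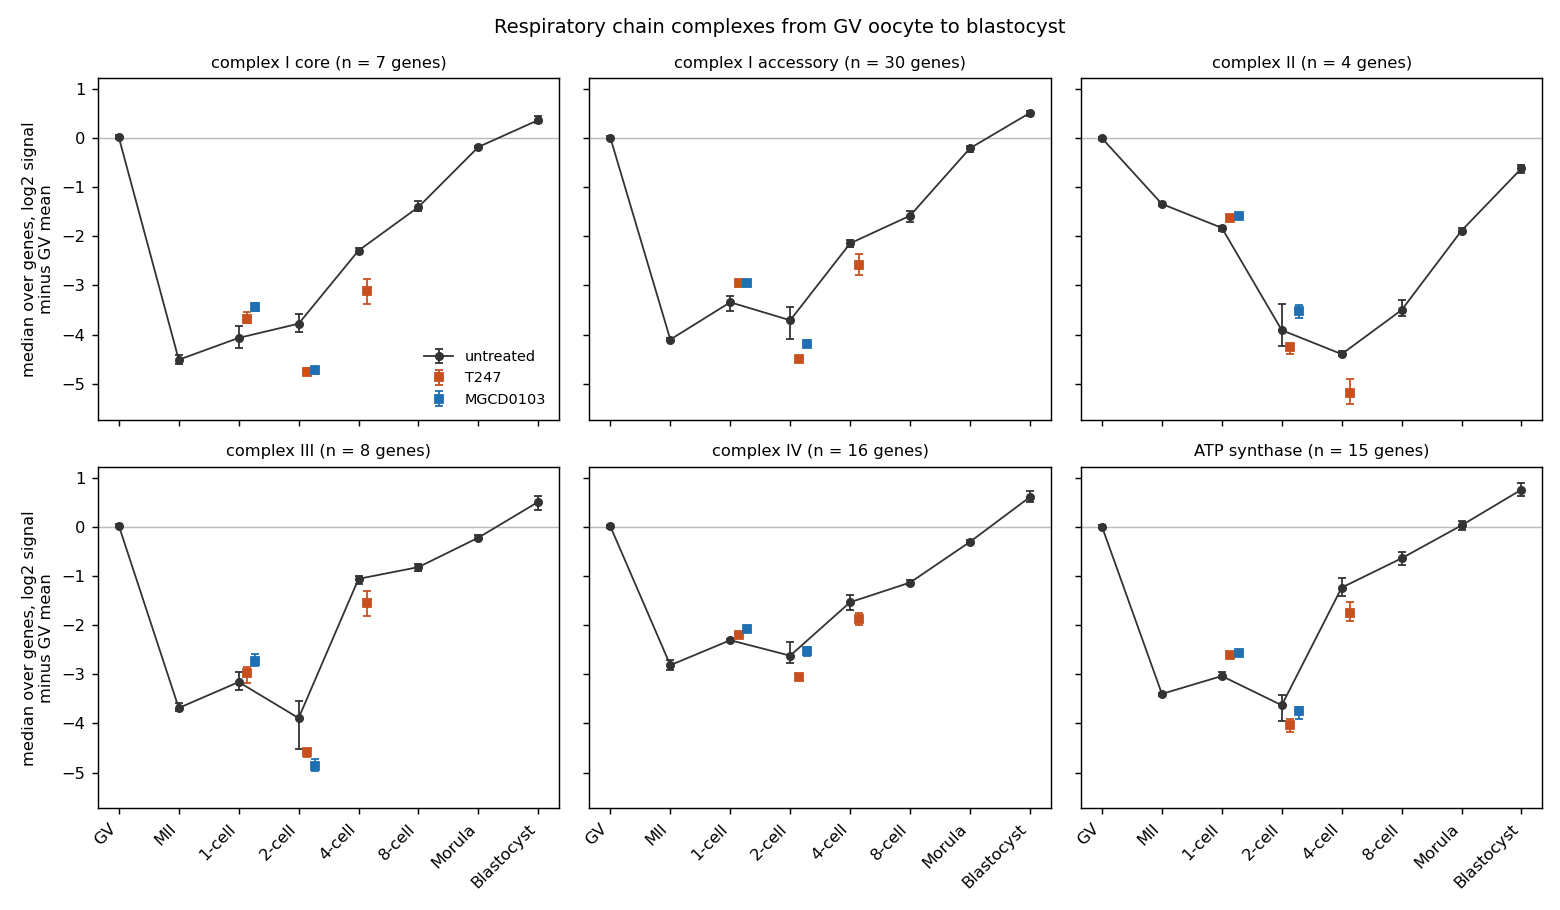
Median change of the genes of each complex from their GV mean (y axis, log2 signal) at each stage (x axis), one panel per complex, with controls as a line and the T247 and MGCD0103 conditions as squares. Points are means of 3 arrays and bars run from the lowest to the highest array. All panels fall from GV to MII, and complex II ends below its GV level while the others end above it.

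Complexes differed in where they peaked. All 7 core subunits of complex I and 12 of 15 ATP synthase subunits were highest in blastocysts, with a median blastocyst minus GV difference of 0.36 and 0.79. By contrast, 3 of the 4 complex II subunits were highest in GV oocytes, and the median of that difference was -0.62. Uqcrc1, which encodes a core protein of complex III, spanned the widest range of condition means, from 3.94 in MII oocytes, where 1 of 3 arrays was well above background, to 14.17 in blastocysts (a range of 10.2 on the log2 scale). Cox8a, the ubiquitous form of a small complex IV subunit, spanned the narrowest (1.85).

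Promoter windows from RefSeq (build GRCm38.p6, 250 bases before to 50 after the gene start) were found for 69 of the 85 genes, 75 windows in all. NRF1, GABP of the ETS family and YY1 are transcription factors known to act on respiratory chain genes. One fixed run of letters was searched for each on both strands: for ETS CCGGAAG, and for NRF1 and YY1 the runs shown in capitals below. The NRF1 letters stood in 5 of the 75 windows (6.67%, against 0.971% of all 32851 windows), the ETS letters in 16 (21.3%, against 8.86%), and the YY1 letters in 6 windows of 5 genes (8%, against 0.633%). Windows are shown for genes that recur in the results: Uqcrc1 (chr9:108936398-108936697, plus strand) for its range, Ndufa11 (chr17:56717512-56717811, plus) and Ndufa9 (chr6:126849095-126849394, minus) for their low values after both inhibitors, and Ndufs4 (chr13:114388045-114388344, minus) for its late increase. Capitals mark the NRF1 letters in the first pair and the YY1 letters in the second.
Uqcrc1: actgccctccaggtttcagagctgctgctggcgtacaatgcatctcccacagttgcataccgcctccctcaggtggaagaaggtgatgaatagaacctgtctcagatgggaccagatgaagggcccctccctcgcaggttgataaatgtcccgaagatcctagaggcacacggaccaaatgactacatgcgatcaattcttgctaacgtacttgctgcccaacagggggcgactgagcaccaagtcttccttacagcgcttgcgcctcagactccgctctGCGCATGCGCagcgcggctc
Ndufa11: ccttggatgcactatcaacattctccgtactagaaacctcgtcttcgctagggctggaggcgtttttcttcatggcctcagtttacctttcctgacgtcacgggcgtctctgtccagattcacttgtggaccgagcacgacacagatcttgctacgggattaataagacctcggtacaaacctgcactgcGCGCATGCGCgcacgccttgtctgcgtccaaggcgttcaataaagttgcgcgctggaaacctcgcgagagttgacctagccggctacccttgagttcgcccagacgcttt
Ndufa9: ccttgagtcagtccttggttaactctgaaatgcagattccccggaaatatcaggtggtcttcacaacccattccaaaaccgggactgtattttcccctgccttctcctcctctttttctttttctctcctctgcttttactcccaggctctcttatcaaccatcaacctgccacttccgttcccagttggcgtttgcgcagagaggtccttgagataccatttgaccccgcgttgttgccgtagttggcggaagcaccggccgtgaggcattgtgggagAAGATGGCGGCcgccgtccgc
Ndufs4: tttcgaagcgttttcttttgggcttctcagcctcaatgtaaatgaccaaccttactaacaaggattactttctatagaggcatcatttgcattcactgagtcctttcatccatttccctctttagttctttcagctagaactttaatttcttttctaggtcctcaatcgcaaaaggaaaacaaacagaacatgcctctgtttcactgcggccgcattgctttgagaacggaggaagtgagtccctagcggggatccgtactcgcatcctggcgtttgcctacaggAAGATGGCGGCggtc
The capitals lie within the 50 bases after the gene start in Uqcrc1, Ndufa9 and Ndufs4, and begin 60 bases before it in Ndufa11. A match of letters describes the sequence and does not show that a factor binds there.

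**Figure D2:**
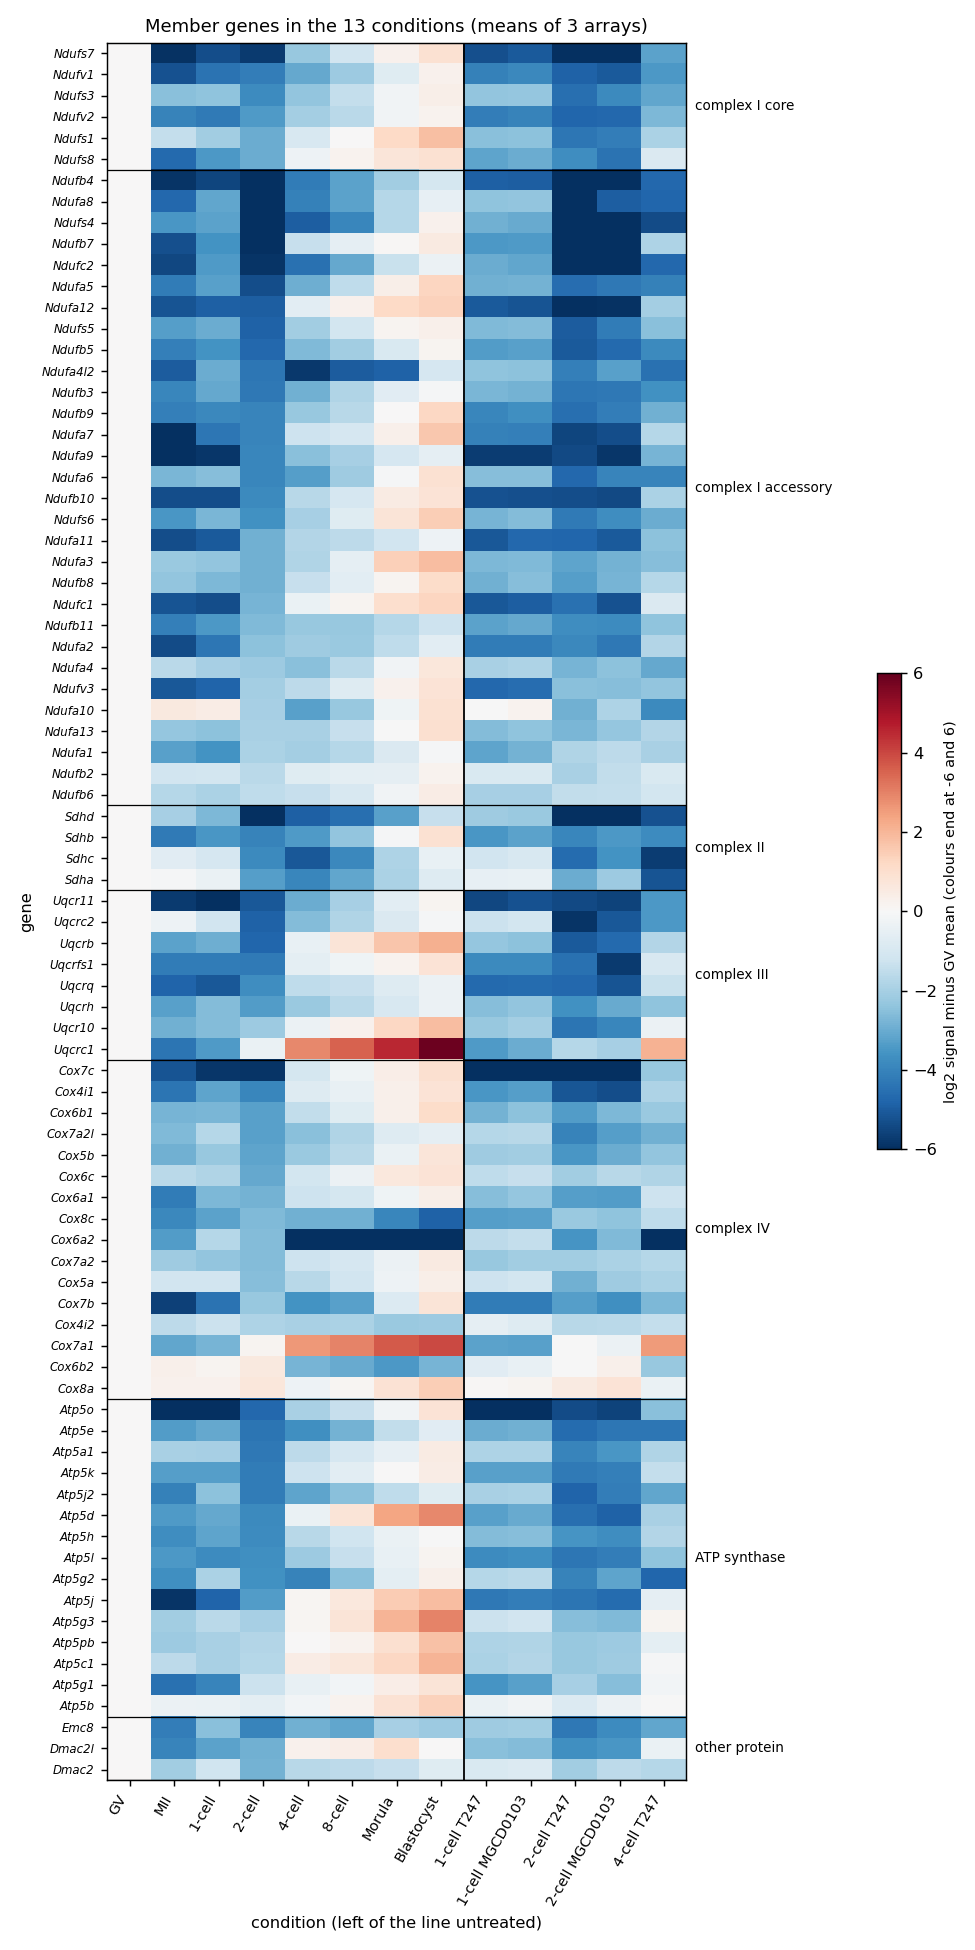
Change of 82 of the 83 genes (rows, grouped by complex) from the own GV mean of each in the 13 conditions (columns), on the log2 scale; colours end at -6 and 6. Most genes are low from MII to the 4-cell stage and near or above 0 in blastocysts, while single genes such as Cox6a2 and Cox8c stay low at the end.

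From GV to MII oocytes, the question was how the signals of the maternal messages changed over oocyte maturation. RNA was amplified and labelled before hybridisation. A change in the amount of a message was not told apart from a change in how it was labelled, here and in the later steps. Of the 83 genes, 76 fell as DEGs and 0 rose, where 48.8% of all genes fell and 0.519% rose. The median LFC was -3.50, against -0.97 over all genes. The whole distribution moved with the scaling here: the median of all genes was 0.32 after scaling to the 75th percentile and 0.30 after quantile normalization, and 60 and 61 of the chain genes then fell while 6 and 4 rose. Relative to the median of all genes, the chain genes lay at -2.53, and at -2.48 and -2.73 under those scalings.

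All 7 complex I core subunits fell (median LFC -4.51), as did 29 of 30 accessory subunits (-4.09), 7 of 8 complex III (-3.71), 14 of 16 complex IV (-2.84) and 14 of 15 ATP synthase subunits (-3.38). Atp5o, which encodes the oligomycin-sensitivity protein of the peripheral stalk, had log2 signals of 13.51, 13.72 and 13.63 in GV and 6.76, 6.60 and 6.69 in MII oocytes (LFC -6.93, SE 0.15, adjusted p = 6.78e-26). Ndufa7 and Ndufa9, accessory subunits of the matrix arm of complex I, followed. For Ndufa7 the arrays read 13.94, 13.90 and 13.86 and then 7.77, 7.59 and 7.62 (LFC -6.24, SE 0.19, adjusted p = 1.14e-22), and for Ndufa9 14.52, 14.46 and 14.42 and then 8.43, 8.35 and 8.34 (LFC -6.09, SE 0.18, adjusted p = 2e-23). For these 3 genes no MII array came near a GV array. The core subunit Ndufv1, which binds NADH and FMN, fell by 5.22 on the log2 scale.

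Complex II divided. Sdhb, its iron-sulfur subunit, fell by 4.26 on the log2 scale, whereas Sdha, the flavoprotein that oxidises succinate, read 14.62, 14.69 and 14.75 in GV and 14.59, 14.57 and 14.64 in MII oocytes (LFC -0.08, SE 0.26, adjusted p = 0.795), with overlapping arrays. Of the other 6 genes that were not DEGs, Ndufa10 was the highest in MII relative to GV oocytes (LFC 0.60), followed by Cox6b2 (0.29), Cox8a (0.26), Uqcrc2 (-0.31), Atp5b (-0.36), the catalytic beta subunit of the ATP synthase, and Sdhc (-0.70). The sign of 3 DEGs depended on the scaling: Cox5a (0.23 at the 75th percentile), Ndufs1 (0.081 after quantile normalization) and Ndufb2 (0.23 and 0.093). Other nuclear lists were also lower: 65 of 78 mitochondrial ribosomal protein genes fell (median LFC -2.83), 77 of 78 cytosolic ribosomal protein genes (-4.19), 29 of 36 proteasome subunit genes (-2.81) and 33 of 43 respiratory chain assembly factor genes (-2.67). Of the 13 probed genes encoded in mitochondrial DNA, 9 rose (median LFC 1.36), among them ND1 (1.96), ND4L (1.93) and ND2 (1.86), all core subunits of complex I.

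From MII oocytes to 1-cell embryos, 15 chain genes rose and 0 fell, where 17.2% of all genes rose and 5.63% fell. The median LFC was 0.29, against 0.13 over all genes. Scaling to the 75th percentile gave 10 higher and 4 lower. Ndufc2, a membrane-arm accessory subunit, read 9.36, 8.93 and 9.02 in MII oocytes and 11.33, 10.93 and 11.24 in 1-cell embryos (LFC 2.06, SE 0.12, adjusted p = 1.6e-14), with no overlap. Ndufa4l2 was 4.14-fold higher by the fitted LFC, well above background on 0 of 3 MII and 3 of 3 1-cell arrays. Ndufa7 rose by 1.89 and Cox4i1, the main form of the largest nuclear subunit of complex IV, by 1.20. No subunit of complex II or III was a DEG.

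Zygotic genome activation in the mouse is known to reach its major phase at the 2-cell stage. From 1-cell to 2-cell embryos, 14 chain genes rose and 28 fell, where 18.2% of all genes rose and 33.9% fell; without the 2-cell control replicate 1, 17 rose and 29 fell (21.5% and 33.6% of all genes), including all 42 DEGs of the full set. The LFC had a median of -0.49, as over all genes (-0.32 against -0.42 without replicate 1). Quantile normalization gave 21 higher and 19 lower. Single genes moved far in both directions.

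Ndufa8, an accessory subunit of complex I on the intermembrane-space side, read 10.45, 9.99 and 10.60 in 1-cell and 7.65, 5.46 and 5.85 in 2-cell embryos (LFC -4.03, SE 0.29, adjusted p = 1.47e-13, -4.48 without replicate 1). Uqcrc2, the other core protein of complex III, read 13.93, 13.83 and 13.98 and then 10.24, 10.34 and 10.05 (LFC -3.70, -3.61 without). Sdhd, a membrane anchor of complex II, read 12.45, 12.39 and 12.50 and then 8.94, 8.99 and 9.04 (LFC -3.46, -3.29 without). The groups did not overlap for these 3, and 3 of the 4 complex II genes fell (median LFC -2.87, -3.14 without).

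Uqcrc1 went the other way from Uqcrc2: it read 5.35, 4.69 and 4.72 at the 1-cell stage, where 2 of 3 arrays were well above background, and 6.75, 8.61 and 8.33 at the 2-cell stage (LFC 2.98, SE 0.31, adjusted p = 5.43e-10, 3.71 without). Cox7a1, known as the heart and muscle form of a complex IV subunit, rose from 5.71, 5.14 and 5.04 to 7.04, 9.05 and 8.63 (LFC 2.95, 3.70 without). Ndufv3, an accessory subunit next to the NADH-binding site, rose by 2.77 (3.83 without), but its other probe gave -0.21. In each of the 3, replicate 1 was the lowest of the 2-cell controls, yet above every 1-cell array.

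From the 2-cell to the 4-cell stage, most of the chain rose. Of the 83 genes, 56 rose and 6 fell, where 25.8% of all genes rose and 34.1% fell; without the 2-cell control replicate 1, 52 rose and 6 fell (23.1% and 36.4% of all genes), and 56 of the 62 DEGs were the same. The median LFC was 1.46, against -0.20 over all genes (1.40 and -0.31 without), so the chain genes lay 1.67 above the median gene (1.71 and 1.31 under the other scalings). Within slides 1, 2 and 3, the median change was 1.82, 1.48 and 1.40.

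All 7 core subunits of complex I (median LFC 2.03) and all 8 counted subunits of complex III (2.21) rose. So did 19 of 30 complex I accessory subunits (1.41), 11 of 15 ATP synthase subunits (2.09) and 7 of 16 complex IV subunits (0.93). In complex II, 1 rose and 1 fell (median -0.01, 0.32 without replicate 1). Without replicate 1 the core subunits that rose were 5 of 7 (median 1.78), with 8 of 8 in complex III (1.94), 17 of 30 accessory subunits, 10 of 15 in the ATP synthase and 9 of 16 in complex IV. Cox7c, a small subunit of complex IV, read 8.20, 8.13 and 8.03 in 2-cell and 12.86, 12.98 and 12.98 in 4-cell embryos (LFC 4.82, SE 0.12, adjusted p = 3.95e-24, 4.70 without). Ndufb7, a membrane-arm accessory subunit, read 8.57, 8.55 and 8.30 and then 13.08, 13.16 and 12.98 (LFC 4.60, 4.50 without), and Uqcrb, which lies close to the quinone site of complex III, 8.70, 8.34 and 8.23 and then 12.70, 12.75 and 12.77 (LFC 4.32, 4.30 without). No 2-cell array reached a 4-cell array for these genes. In the same step, 77 of 78 cytosolic ribosomal protein genes rose (median LFC 2.71), as did 51 of 78 mitochondrial ribosomal (1.71) and 29 of 36 proteasome genes (2.40), while 0 of 13 mitochondrially encoded genes were DEGs (-0.19, -0.46 without replicate 1). Without replicate 1 these counts were 77, 49, 28 and 0.

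The genes that fell included forms of complex IV subunits that are known from other tissues. Cox6a2, known as the heart and muscle form, read 10.69, 10.66 and 10.83 in 2-cell and 4.63, 4.87 and 4.35 in 4-cell embryos, where 1 of 3 arrays was well above background (LFC -6.11, SE 0.35, adjusted p = 5.58e-16, -6.25 without). Cox6b2, known as the testis form, read 13.15, 13.05 and 13.07 and then 9.68, 9.59 and 9.78 (LFC -3.41, -3.38 without). Their widely expressed partners moved the opposite way: Cox6a1 rose by 1.62 (1.45 without) and Cox6b1 by 1.81 (2.10 without). By the blastocyst stage, Cox6a2 lay at -7.52 and Cox6b2 at -2.80 relative to GV oocytes, against 0.35 for Cox6a1 and 1.11 for Cox6b1. For Cox8c, known from testis, the corresponding value was -4.84, against 1.47 for Cox8a, and for Cox4i2, known from lung, -2.18, against 0.80 for Cox4i1.

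Not every tissue form fell. Cox7a1 rose again from the 2-cell to the 4-cell stage (2-cell 7.04, 9.05 and 8.63, 4-cell 10.74, 10.75 and 10.56, LFC 2.44, 1.70 without) and lay 3.98 above its GV mean in blastocysts, while Cox7a2 lay at 0.54. Cox7b2, a testis form, failed the filter: it was well above background on 16 of 39 arrays, among them all 3 of each of the 4-cell, 8-cell, morula and blastocyst controls and 0 of 3 in GV, MII, 1-cell and 2-cell controls. Cox8b, a muscle form, was well above background on 0 of 39 arrays, and positive and significant on 16. Ndufa4l2, a paralogue of Ndufa4 that hypoxia is known to induce, was well above background on 0 of 3 arrays in MII oocytes and in 4-cell, 8-cell and morula controls, and on 3 of 3 in blastocysts.

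**Figure D3:**
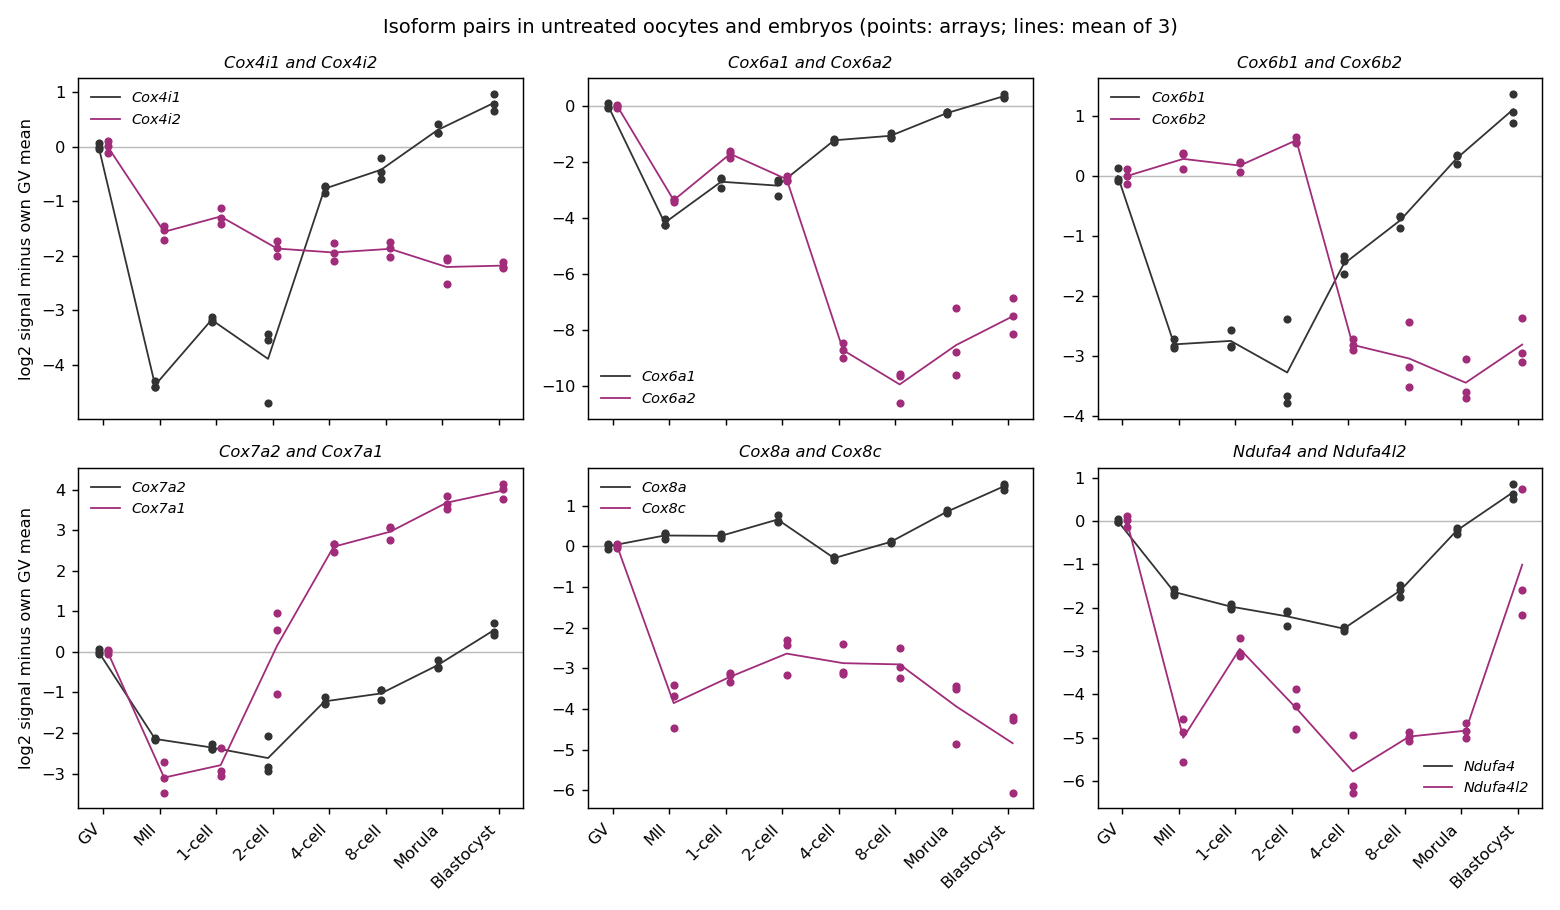
Change from the gene's own GV mean (y axis, log2 signal) over the 8 control stages (x axis) for 6 pairs of related subunit genes; points are arrays and lines join means of 3. The less widely expressed forms Cox6a2, Cox6b2, Cox8c and Cox4i2 end below their GV level, and Cox7a1 ends 3.98 above it.

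After the 4-cell stage the chain genes went up in smaller steps. From the 4-cell to the 8-cell stage 15 rose and 1 fell (7.98% and 6.59% of all genes), with a median LFC of 0.60 against 0.12. By adjusted p alone, 56 were higher, including 7 of 7 complex I core subunits, where 25.4% of all genes were. The count of DEGs moved with single libraries: it was 25 without 8-cell replicate 1 and 10 without 8-cell replicate 2. Atp5g2, a gene for the c-ring of the ATP synthase, read 12.24, 12.43 and 12.23 and then 13.71, 14.08 and 13.68 (LFC 1.53, SE 0.16, adjusted p = 9.68e-09). The gene that fell was Cox6a2, 2.34-fold lower by the fitted LFC. Its signal was well above background on 0 of 3 8-cell and 1 of 3 4-cell arrays, so the size of the fall is uncertain.

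From the 8-cell stage to the morula, 40 rose and 1 fell (31.7% and 6.19% of all genes), with a median LFC of 0.99 against 0.56 over all genes. Complex II now rose in full (4 of 4, median LFC 1.65), with 6 of 7 complex I core subunits (1.39). Cox7b, a small complex IV subunit, read 11.92, 11.60 and 11.36 and then 14.06, 14.17 and 14.00 (LFC 2.45, SE 0.14, adjusted p = 4.4e-15), and Ndufs4, an accessory subunit of the NADH-oxidising arm, 9.46, 9.97 and 8.95 and then 11.62, 11.83 and 11.58 (LFC 2.22). No 8-cell array reached a morula array for either gene. Scaling to the 75th percentile left 11 higher and 2 lower, and quantile normalization 10 and 3.

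From morula to blastocyst, 18 rose and 0 fell (19.4% and 7.86% of all genes), with a median LFC of 0.66 against 0.20. The 75th percentile gave 5 higher and 2 lower, and quantile normalization 16 and 2. Complex II again rose in 3 of 4 genes (median 1.26), and Ndufs4 rose once more, to 13.73, 13.38 and 13.80 (LFC 1.96). Ndufa4l2 read 3.34, 3.70 and 3.51 in morulae and 6.19, 9.09 and 6.75 in blastocysts, 14.2-fold higher by the fitted LFC (adjusted p = 7.64e-09). In this gene 1 blastocyst array lay well above the others, and no morula array was well above background. In this step 1 of 78 mitochondrial ribosomal protein genes rose (median 0.04) and 0 of 78 cytosolic ones.

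Genes known to drive or serve the chain were followed through the same steps. Gabpa, the DNA-binding subunit of GABP, was well above background on 0 of 3 1-cell arrays and on 3 of 3 2-cell controls, where it was 220-fold higher (adjusted p = 1.18e-22). Its fitted LFC was 7.78, and 8.00 without the 2-cell control replicate 1. Yy1 rose by 2.30 in the same step (2.60 without). Tfam, which packages and transcribes mitochondrial DNA, fell by 2.34 from the 1-cell to the 2-cell stage (-2.40 without) and rose by 4.70 to the 4-cell stage (4.76 without). Of 17 biogenesis genes, 12 fell from GV to MII, 3 rose and 7 fell from the 1-cell to the 2-cell stage, and 9 rose and 2 fell to the 4-cell stage (4 and 7, then 8 and 2, without replicate 1). Of 43 assembly factors, 8 rose and 16 fell from the 1-cell to the 2-cell stage, and 18 rose and 8 fell to the 4-cell stage (8 and 14, then 17 and 9, without replicate 1). Foxred1, an assembly factor of complex I, rose by 5.48 from 1-cell to 2-cell embryos (6.04 without), where 1 of 3 1-cell arrays was well above background.

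At the 1-cell stage, when the exposure had just ended, no chain gene was a DEG after T247 or after MGCD0103. Among all genes, 5.5% were higher and 0.803% lower after T247, and 3.51% and 0.593% after MGCD0103. At an unadjusted p under 0.05 in limma, 23 were higher and 4 lower after T247 (17.6% and 14.5% of all genes), and 27 higher and 3 lower after MGCD0103 (19.2% and 7.02%). An adjusted p under 0.05 alone gave 12 higher and 3 lower chain genes for T247 (12.6% and 8.74% of all genes) and 15 higher and 2 lower for MGCD0103 (11.2% and 3.16%). The median LFC was 0.13 and 0.24. The 95% interval of the LFC lay within 1 of 0 for 77 of the 83 genes after T247 and for 70 after MGCD0103. Ndufs1, the large iron-sulfur core subunit of complex I, read 10.69, 10.52 and 10.70 in controls, 10.25, 10.25 and 10.14 after T247 (LFC -0.42, SE 0.10, adjusted p = 0.0025) and 10.25, 10.35 and 10.20 after MGCD0103 (LFC -0.37, SE 0.10, adjusted p = 0.0115). Bcs1l, an assembly factor that inserts the Rieske protein into complex III, was a DEG after both (LFC 1.47 and 1.18), but not with the mean of its probes (0.78 and 0.69), nor after MGCD0103 when scaled to the 75th percentile (0.99).

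At the 2-cell stage, T247 embryos had lower signals for part of complexes I and III. Of the 83 genes, 19 were lower and 1 higher as DEGs, where 17.1% of all genes were lower and 8.3% higher; without the control replicate 1, 30 were lower and 3 higher (24.5% and 8.54% of all genes), including all 20 of the full set. The LFC had a median of -0.55, against -0.28 over all genes (-0.72 without replicate 1). Leaving out control replicate 2 instead left 10 DEGs. Quantile normalization gave 5 higher and 12 lower, and the chain genes then lay 0.09 below the median of all genes, against 0.27 by the main scaling.

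In complex I, 4 of 7 core subunits were DEGs (median LFC -1.21) and all 7 were lower by adjusted p alone, where 39.6% of all genes were. Ndufs1 read 9.77, 9.83 and 9.67 in controls and 8.37, 8.25 and 8.54 after T247 (LFC -1.37, SE 0.10, adjusted p = 2.83e-12, -1.49 without). Here replicate 1 lay with the other controls and the groups were far apart. Among the 30 accessory subunits, 8 were lower and 1 higher. Ndufa11, in the membrane arm, read 9.05, 11.08 and 10.91 and then 8.55, 8.41 and 8.52 (LFC -1.86, SE 0.26, adjusted p = 6.56e-07, -2.59 without), and Ndufc1, of the same arm, 9.41, 11.77 and 11.54 and then 9.20, 9.14 and 9.23 (LFC -1.71, -2.52 without). For both, replicate 1 of the controls lay nearer to the T247 arrays than to the other controls, but above all of them.

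In complex III, 4 of 8 subunits fell (median LFC -0.66). Uqcr10, one of its smallest subunits, read 10.67, 12.42 and 12.38 in controls and 9.56, 9.68 and 9.60 after T247 (LFC -2.21, SE 0.23, adjusted p = 2.98e-09, -2.82 without), the largest DEG of the chain in this comparison. Uqcrc1 read 6.75, 8.61 and 8.33 and then 6.80, 6.52 and 6.53 (LFC -1.28, -2.00 without), so that control replicate 1 overlapped the T247 arrays. In complex IV 2 of 16 fell (median -0.31), among them Cox4i1 (controls 11.26, 12.53 and 12.43, T247 10.91, 10.73 and 10.85, LFC -1.24, -1.68 without), and in the ATP synthase 1 of 15 (-0.55). No complex II subunit was a DEG (median -0.21), with or without replicate 1: Sdha read 12.68, 10.78 and 10.74 in controls and 11.62, 11.76 and 11.77 after T247 (LFC 0.31, adjusted p = 0.314, 0.86 without). The DEG that was higher, Ndufa8, read 7.65, 5.46 and 5.85 and then 7.29, 7.49 and 7.55 (LFC 1.13, adjusted p = 0.00134, 1.57 without), again overlapping through replicate 1. Without that library, 6 of 7 core (median LFC -1.49) and 11 of 30 accessory subunits of complex I were lower, with 4 of 8 in complex III (-1.03), 4 of 16 in complex IV and 4 of 15 in the ATP synthase.

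After MGCD0103, 22 chain genes were lower and 6 higher at the 2-cell stage, where 16.2% of all genes were lower and 11.8% higher; without control replicate 1, 29 were lower and 7 higher (22.3% and 14.6% of all genes), including all 28 of the full set. The LFC had a median of -0.15, against 0.04 over all genes (-0.29 without), and it was 0.02 after quantile normalization. By complex, the lower genes were 4 of 7 core subunits (median LFC -1.15), 8 of 30 accessory subunits, 4 of 8 complex III subunits (-0.96), 3 of 16 in complex IV and 3 of 15 in the ATP synthase. Without replicate 1 these were 6 of 7 (-1.47), 10 of 30, 4 of 8 (-1.42), 4 of 16 and 4 of 15.

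Ndufc1 read 9.41, 11.77 and 11.54 in controls and 8.33, 8.38 and 8.63 after MGCD0103 (LFC -2.46, SE 0.30, adjusted p = 4.5e-08, -3.27 without), and Ndufa11 9.05, 11.08 and 10.91 and then 8.11, 8.26 and 8.22 (LFC -2.15, -2.88 without). Ndufa9 read 9.70, 10.99 and 10.90 and then 8.58, 8.73 and 8.65 (LFC -1.88, -2.38 without). All controls, replicate 1 included, lay above all treated arrays for these 3 genes. Ndufs1 read 8.77, 8.54 and 8.52, below its controls at 9.77, 9.83 and 9.67 (LFC -1.15, -1.26 without). In complex III, Uqcrfs1, the Rieske iron-sulfur protein, read 7.99, 9.81 and 9.63 and then 7.40, 7.60 and 7.95 (LFC -1.49, SE 0.25, adjusted p = 1.09e-05, -2.19 without).

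Of the 6 higher genes, 3 have Nduf names (Ndufa8, Ndufa5 and Ndufa4l2). Ndufa8 read 7.65, 5.46 and 5.85 in controls and 8.66, 8.46 and 8.38 after MGCD0103 (LFC 2.18, SE 0.29, adjusted p = 1.88e-07, 2.63 without). Cox6c, a small complex IV subunit, read 13.19, 11.19 and 11.52 and then 13.39, 13.36 and 13.36 (LFC 1.40, 1.95 without), and Sdha 12.68, 10.78 and 10.74 and then 12.69, 12.50 and 12.38 (LFC 1.12, 1.66 without). In each, control replicate 1 lay close to the treated arrays, and for Sdha it overlapped them. Dmac2, which is known to act in complex I assembly, had an LFC of 1.26 (1.69 without). Ndufa4l2 was also a DEG (LFC 1.07, 1.21 without), with 1 of 3 control arrays well above background.

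**Figure D4:**
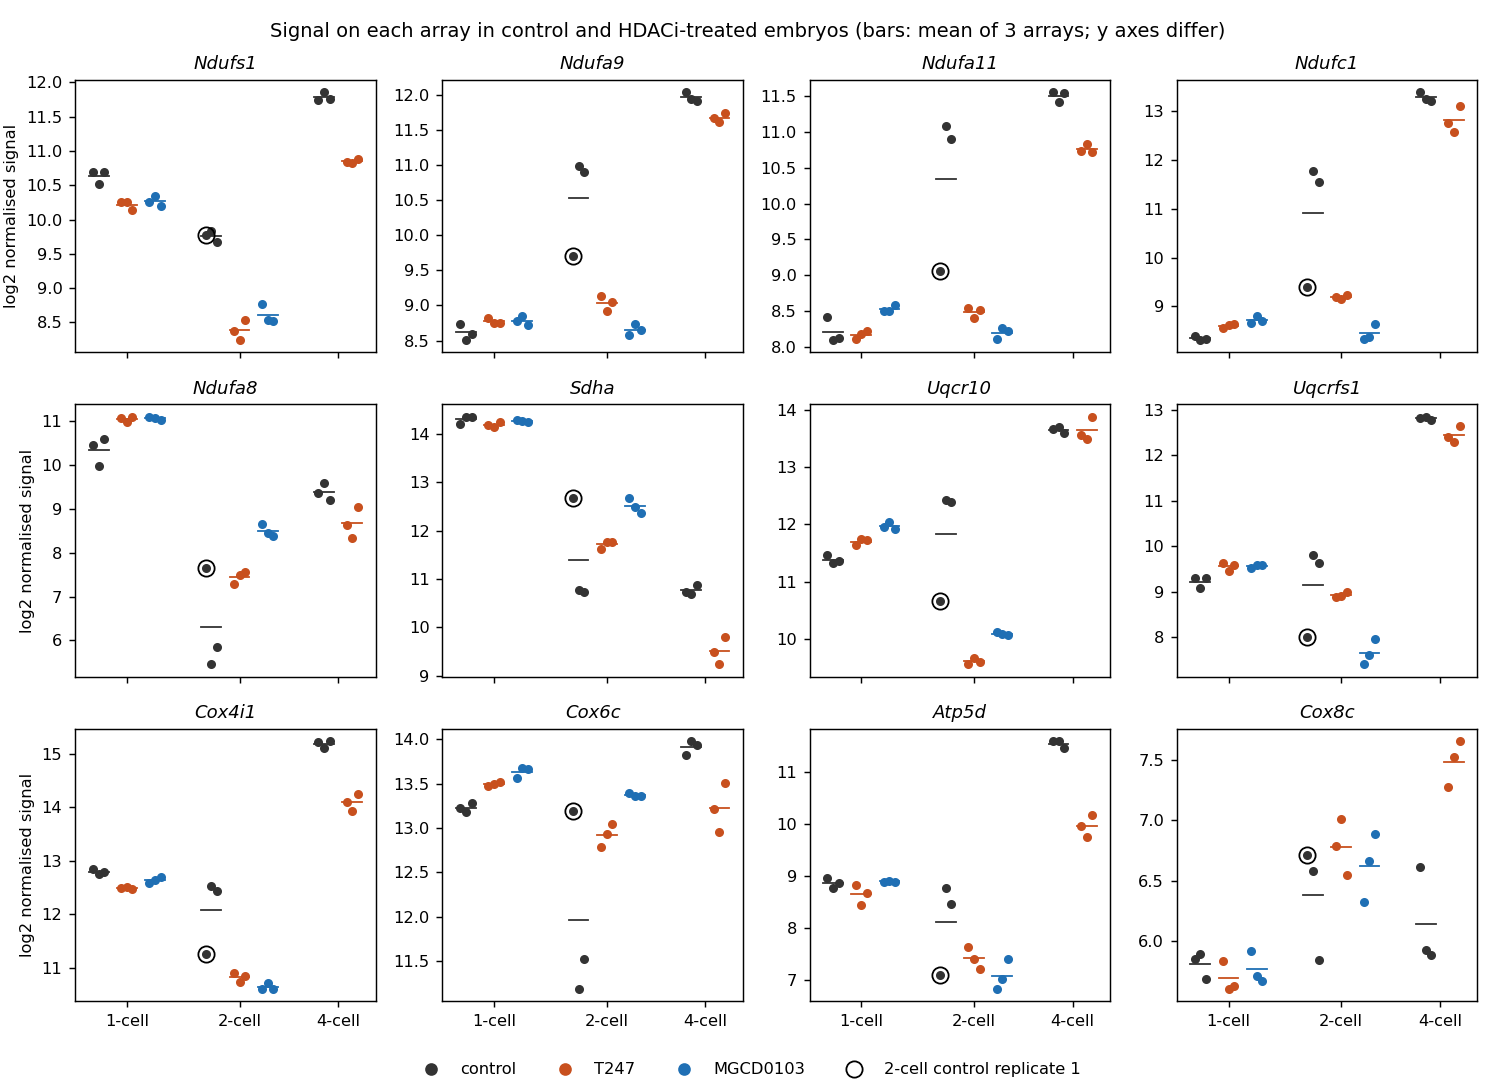
Log2 signal of each array (y axis) in the treated stages and their controls (x axis) for 12 genes, with 2-cell control replicate 1 circled. In Ndufs1 the circled array lies with the other controls at 9.67 to 9.83, and in Ndufa11, Ndufc1 and Uqcr10 it lies between the other controls and the treated arrays.

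Among the other lists, cytosolic ribosomal protein genes were lower: 52 of 78 after T247 (median LFC -1.21) and 59 of 78 after MGCD0103 (-1.51), and 64 of 78 after each without replicate 1. For mitochondrial ribosomal protein genes the counts were 22 lower and 2 higher, and 17 lower and 5 higher, of 78 (29 and 2, and 23 and 11, without). Of the 43 assembly factors, 8 and 10 were lower (14 and 12 without), and of the 13 mitochondrially encoded genes 0 were DEGs after either inhibitor (median LFC -0.08 and 0.02, -0.35 and -0.18 without). Gabpa was lower after T247 (LFC -2.35, -2.57 without) and after MGCD0103 (-3.52, -3.74 without). Polrmt, the mitochondrial RNA polymerase, had LFCs of -2.34 and -2.27 (-2.64 and -2.57 without), and Slirp, which stabilises mitochondrial messages, -2.45 and -2.22 (-3.26 and -3.02 without). Tfam was higher (1.28 and 1.16, 1.33 and 1.22 without), as was Cox19, a copper-handling assembly factor of complex IV (1.55 and 1.96, 1.67 and 2.08 without).

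**Figure D5:**
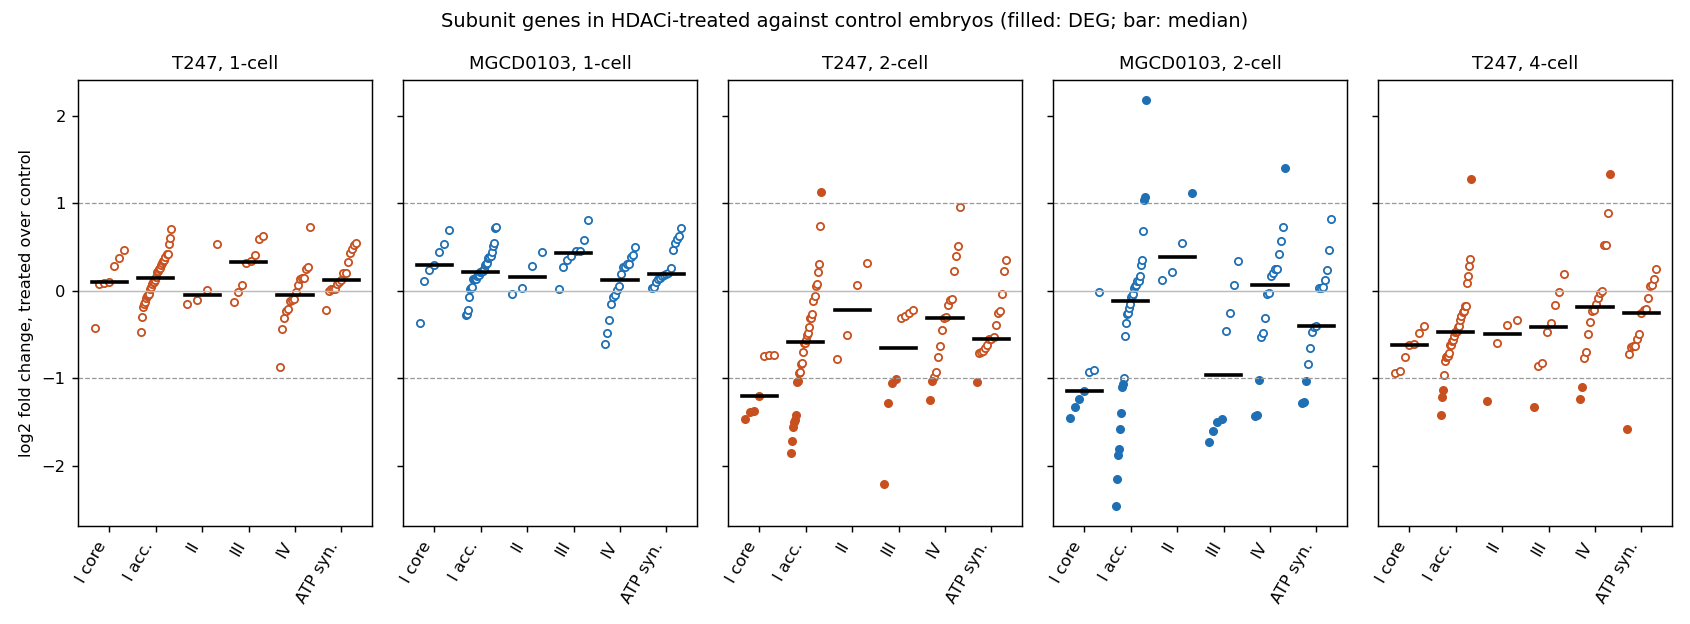
LFC of each chain gene against the controls of its stage (y axis) by complex (x axis), in 5 panels for T247 in 1-cell, in 2-cell and in 4-cell embryos and MGCD0103 in the first pair of these stages. Filled points are DEGs, bars are medians and dashed lines mark LFCs of -1 and 1; the panels of the 1-cell stage hold no filled point, and the filled Ndufa4l2 at the 4-cell stage was not well above background on any array of either group.

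T247 embryos that reached the 4-cell stage still differed from controls. Of the 83 genes, 8 were lower and 2 higher, where 6.32% of all genes were lower and 11% higher. The LFC had a median of -0.46, against -0.03 over all genes, and 45 genes were lower by adjusted p alone (24.9% of all genes). All 7 complex I core subunits lay below the controls without overlap. Of all genes, 60.3% did not overlap, counted in either direction. An adjusted p under 0.05 in limma was reached by 6 of the 7, but none reached an LFC of -1 (median -0.62). Ndufs1 came nearest (controls 11.74, 11.86 and 11.76, T247 10.84, 10.82 and 10.88, LFC -0.94, adjusted p = 1.39e-08).

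Atp5d, the delta subunit in the central stalk of the ATP synthase, read 11.60, 11.60 and 11.48 in controls and 9.98, 9.76 and 10.19 after T247 (LFC -1.58, SE 0.23, adjusted p = 1.98e-06). Ndufa12, of the matrix arm, read 12.78, 12.83 and 12.84 and then 11.35, 11.00 and 11.84 (LFC -1.42), and Uqcrb 12.70, 12.75 and 12.77 and then 11.49, 10.91 and 11.83 (LFC -1.33). Sdha, which was not lower at the 2-cell stage, read 10.73, 10.69 and 10.88 and then 9.50, 9.24 and 9.79 (LFC -1.25, adjusted p = 0.000217), and all 4 complex II genes were lower by adjusted p. The controls were tight in these 4 genes, and no T247 array reached them. Of the 2 that were higher, Cox8c read 6.61, 5.93 and 5.89 and then 7.27, 7.52 and 7.65 (LFC 1.34, adjusted p = 0.00313), and Ndufa4l2 was well above background on 0 of 3 arrays in both groups. Among genes that serve the chain, Cyc1, the cytochrome c1 of complex III, had an LFC of -1.18 and Etfa, which passes electrons from fatty acid oxidation, -1.25. Of the ribosomal protein genes, 1 was higher and 0 lower of 78 cytosolic ones, and 0 were higher and 8 lower of 78 mitochondrial ones.

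The inhibitors were compared with each other at the 1-cell and 2-cell stages, at the same dose and time, with p-values adjusted over all genes. At the 1-cell stage no chain gene differed as a DEG (0.263% of all genes) or by adjusted p in limma (0.553%), 4 were higher and 0 lower at an unadjusted p under 0.05 (5.87% and 3% of all genes), and the 95% interval of the difference lay within 1 of 0 for 82 of 83 genes. At the 2-cell stage, 2 were higher and 1 lower after MGCD0103 than after T247 (3.31% and 2.82% of all genes), and 32 were higher and 6 lower by adjusted p alone (28.7% and 8.96%). The median difference was 0.23, against 0.24 over all genes. Scaling to the 75th percentile left 0 higher and 1 lower, and quantile normalization 1 and 3.

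Ndufa10, an accessory subunit with the fold of a nucleoside kinase, read 9.49, 9.56 and 9.45 after T247 and 10.66, 10.50 and 10.45 after MGCD0103, a difference of 1.04 (95% interval 0.78 to 1.30, adjusted p = 1.17e-06). Ndufa8 differed by 1.06 (0.47 to 1.64, adjusted p = 0.00491). Uqcrfs1 read 8.88, 8.91 and 8.99 after T247 and 7.40, 7.60 and 7.95 after MGCD0103 (difference -1.28, interval -1.79 to -0.76, adjusted p = 0.000305). These 3 genes did not overlap between the inhibitors, and the comparison does not use the controls. All 4 complex II genes were higher after MGCD0103 by adjusted p (median difference 0.71), Sdha by 0.80 (0.27 to 1.33).

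Of the 16 genes that were lower than controls as DEGs after both inhibitors, the 95% interval of the difference held 0 for 10, lay below 0 for 4 and above 0 for 2. It held 0 for Cox4i1 (-0.19, -0.56 to 0.18) and Uqcrc1 (-0.32, -0.94 to 0.31). It lay below 0 for Ndufc1 (-0.74, -1.35 to -0.14) and above 0 for Uqcr10 (0.48, 0.011 to 0.95) and Ndufs1 (0.23, 0.020 to 0.43). The interval lay within 1 of 0 for 70 of the 83 genes at this stage. A p that missed the threshold does not show that the inhibitors acted alike.

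The effect of an inhibitor at one stage was set against its effect at another, with the difference of LFCs tested in limma. Between 1-cell and 2-cell embryos, the T247 effect went down in 22 chain genes and up in 0, where 15.9% and 4.32% of all genes did, and without the 2-cell control replicate 1 in 32 and 1 (24.4% and 6.34%). By complex, these were 5 of 7 core and 8 of 30 accessory subunits of complex I, 1 of 4 in complex II, 3 of 8 in complex III, 1 of 16 in complex IV, 3 of 15 in the ATP synthase, and 1 of the other proteins. For MGCD0103 the effect went down in 26 and up in 2 (16.7% and 6.51% of all genes), and in 29 and 5 without that library (23.9% and 10.6%), with 5 of 7 core subunits of complex I and 5 of 8 in complex III among those that went down. Between 2-cell and 4-cell embryos, the T247 effect went up in 10 and down in 6 (19.3% and 7.7% of all genes), and in 18 and 8 without that library (26.9% and 9.28%). Scaling to the 75th percentile turned this balance to 3 up and 11 down, and quantile normalization to 7 and 11. No complex I core subunit passed with all arrays, and 3 of 7 went up without that library.

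Several probes were kept for 28 of the genes, and the brightest one was used. Among these, the other probe had the opposite sign for 1 of 26 DEGs from GV to MII, 2 of 12 from the 1-cell to the 2-cell stage, 1 of 18 to the 4-cell stage, 1 of 7 after MGCD0103 and 0 of 4 after T247 at the 2-cell stage, and 1 of 4 after T247 at the 4-cell stage. The other probe stayed within an LFC of 1 for more of them: 3 of 26 from GV to MII, 4 of 12 from the 1-cell to the 2-cell stage, 3 of 18 to the 4-cell stage, 4 of 12 from the 8-cell stage to the morula, 5 of 7 after MGCD0103 and 1 of 4 after T247 at the 2-cell stage, and 2 of 4 after T247 at the 4-cell stage. In Ndufb5, an accessory subunit of complex I, the probes parted, with LFCs of -4.08 and 0.28 from GV to MII and of 2.09 and -2.90 from the 2-cell to the 4-cell stage. Atp5g1, another gene for the c-ring, gave -1.27 and 0.65 after MGCD0103 at the 2-cell stage. Which probe follows the message of these genes was not tested.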

How the data were processed

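Per the file headers, the deposited scanner files hold the intensity of each spot from Agilent Feature Extraction (10.7.1.1 in the headers, 9.5.1.1 in the submitters' processing notes), background-subtracted and detrended within each of 39 single-colour arrays and not scaled between arrays. The file of 1-cell MGCD0103 replicate 1 had been saved again with rounded signals. The authors' table of log2 values, filtered, filled in and smooth-quantile normalized as their methods describe, served as an alternative.

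Following those methods, signals not positive and significant were set missing (2.15% of values, 4 of them in chain genes), and probes were kept where each of 13 conditions held a valid value on 1 or more of its 3 arrays (19836 of 31398 named probes, 14828 genes). Missing values were imputed from a robust covariance that left out 10% of genes. The brightest probe stood for a gene, named through accession, symbol or synonym in RefSeq. Log2 signals were smooth-quantile normalized and fitted in limma 3.58.1 (R 4.3.3) with 13 condition means over all 39 arrays, without a block. The steps were tested on simulated arrays in which few genes changed, in a single condition. That setting held no broad change between conditions like that from GV to MII. It therefore does not bear on how results depend on the scaling. Figures were drawn with matplotlib 3.10.9 (Python 3.11.15). No spot was saturated (0), and 44.4% to 58.3% of spots per array were well above background. The number of arrays limits the precision.

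Folds are given where a probe was well above background on 0 of 3 arrays of a group. They set the brighter mean against the lowest signal well above background or the dim probe's own, whichever was higher. In the folds printed the dim probe's own signal was the higher. They therefore match the fitted LFC and are estimates, not lower limits. The summed level of a marker list is log2 of its summed signal minus the 75th percentile of the array.

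Members, gene lists and tests were chosen with earlier results of these data known. One chain gene enters the counts but is not reported here by name. Named genes came from a rule: core subunits in each comparison, up to 3 largest changes per direction in each stage step and up to 5 in each treatment comparison, tissue forms with their partners, the widest and narrowest ranges, and up to 3 genes per other list; Ndufb5 and some assembly and regulator genes were shown for their probes or values. Alternatives were other scalings, background correction, no filter, the mean of probes, the authors' table, slide or replicate as a block, arrays of 8 conditions, and each array left out in turn. Slide as a fixed block was chosen after seeing the data. Promoter sequences are from RefSeq (GRCm38.p6).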

Additional observations from a re-analysis of the deposited data

Results flagged for a closer look

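The effect of an inhibitor on the chain genes differed between stages by the interaction test in limma (the difference of 2 LFCs, adjusted p over all genes). Each test uses the 2-cell controls, so the same count without control replicate 1 is given. Genes such as Uqcr10, Ndufc1 and Ndufa11 were named for their large falls at the 2-cell stage. The tests reuse those 2-cell arrays, so this choice favoured the direction seen in these genes.

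For T247, the effect at the 2-cell stage minus that at the 1-cell stage called 22 genes, all lower (15.9% of all genes were lower and 4.32% higher). Without replicate 1, 32 were lower and 1 higher, including all 22. The difference was -2.52 for Uqcr10 (adjusted p = 4.81e-07), -1.97 for Ndufc1 (0.000444), -1.86 for Ndufa7 (3.64e-06), -1.81 for Ndufa11 (0.00029), -1.65 for Ndufa9 (4.85e-06) and -1.55 for Ndufa2 (0.000124). Without replicate 1 these were -3.14, -2.78, -2.38, -2.55, -2.16 and -2.06 in the same order. These 6 are a small complex III subunit and accessory subunits of complex I.

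For MGCD0103, the same difference called 28 genes, 26 lower and 2 higher (16.7% and 6.51% of all genes), and 29 lower and 5 higher without replicate 1. In complex I it was -2.84 for Ndufc1 (adjusted p = 3.27e-06), -2.46 for Ndufa11 (4.39e-06), -2.05 for Ndufa9 (1.17e-07), -1.94 for Ndufa2 (5.53e-06) and -1.62 for Ndufa7 (2.12e-05). In complex III it was -2.31 for Uqcr10 (1.49e-06) and -1.84 for Uqcrfs1 (0.000134), and in the ATP synthase -1.06 for Atp5d (0.011). The 2 genes that went up were Ndufa8 (1.46, adjusted p = 0.00513) and Sdha (1.16, adjusted p = 0.0141). Without replicate 1 the difference was -3.65 for Ndufc1, -3.20 for Ndufa11, -2.55 for Ndufa9, -2.44 for Ndufa2, -2.14 for Ndufa7, -2.92 for Uqcr10, -2.54 for Uqcrfs1, -1.72 for Atp5d, 1.91 for Ndufa8 and 1.70 for Sdha.

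For T247, the effect at the 4-cell stage minus that at the 2-cell stage called 16 genes, 10 higher and 6 lower (19.3% and 7.7% of all genes), and 18 higher and 8 lower without replicate 1. Scaling to the 75th percentile gave 3 higher and 11 lower, and quantile normalization 7 and 11. The median difference was 0.15 over the chain genes and 0.29 over all genes. Genes named for large falls at the 2-cell stage came up, a direction that this choice favoured: Uqcr10 by 2.20 (adjusted p = 3.49e-06), Ndufa2 by 1.79 (1.74e-05), Ndufc1 by 1.24 (0.0173), Ndufa9 by 1.21 (0.000244), Ndufa11 by 1.11 (0.0162) and Ndufa7 by 1.09 (0.0018). Others went down: the difference was -1.84 for Ndufa8 (adjusted p = 0.000499), -1.65 for Cox6c (0.000402), -1.57 for Sdha (0.000911) and -1.04 for Uqcrb (0.00017). Without replicate 1 it was 2.81 for Uqcr10, 2.30 for Ndufa2, 2.05 for Ndufc1, 1.71 for Ndufa9, 1.85 for Ndufa11, 1.61 for Ndufa7, -2.28 for Ndufa8, -2.20 for Cox6c, -2.12 for Sdha and -1.02 for Uqcrb. With slide as a fixed block, the counts of chain DEGs for these differences between stages stayed within 1.5 times. Between 1-cell and 2-cell embryos, the layout of the slides held the LFCs fixed for both inhibitors, so this check could not move them. Only the T247 difference between 2-cell and 4-cell embryos could change in LFC. Beyond that, the part of the 2-cell control replicate 1 and of the slides in these differences was not tested.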

How the results depend on the processing

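Slide as a fixed block could be fitted to 10 comparisons only: the steps of the control series and the differences of an inhibitor's effect between stages. It could not be fitted to treated against control embryos, nor to MGCD0103 against T247. Of the 10 fitted, only the T247 effect at the 4-cell minus the 2-cell stage could change in LFC. In the rest, the layout of the slides held the LFCs fixed, so only their spread could change. The count of chain DEGs stayed within 1.5 times under the authors' table, no filter, the mean of probes, slide as a random or fixed block, and arrays of the 8 conditions, in each comparison these could be fitted to. The exceptions were scaling to the 75th percentile (13 from the 8-cell stage to the morula, 7 from morula to blastocyst, 1 for MGCD0103 against T247 at the 2-cell stage, 12 for the T247 effect at the 2-cell minus the 1-cell stage), quantile normalization (7 from the 4-cell to the 8-cell stage, 13 to the morula, 14 for that T247 effect) and normexp (1 for MGCD0103 against T247 at the 2-cell stage). Leaving out an array gave 10 to 25 DEGs from the 4-cell to the 8-cell stage (10 without 8-cell replicate 2, 25 without replicate 1), 0 to 1 for T247 at the 1-cell stage (1 without control replicate 3), 10 to 33 for T247 at the 2-cell stage (10 without control replicate 2, 33 without replicate 1) and 11 to 26 for the T247 effect at the 4-cell minus the 2-cell stage (26 without 2-cell control replicate 1, 11 without replicate 2). The cause of these shifts was not tested. Of the calls on named genes, those kept in every setting were 33 of 42 from GV to MII, 11 of 16 to the 1-cell, 28 of 35 to the 2-cell, 29 of 38 to the 4-cell and 10 of 15 to the 8-cell stage, 10 of 26 to the morula and 7 of 19 to the blastocyst. They were 0 of 2 and 0 of 3 for T247 and MGCD0103 at the 1-cell stage, 14 of 22 and 21 of 30 at the 2-cell stage, 5 of 14 for T247 at the 4-cell stage and 1 of 8 for MGCD0103 against T247 at the 2-cell stage.

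Signs turned for Cox5a (0.23) and Ndufb2 (0.23) from GV to MII at the 75th percentile, for Ndufs1 (0.081) and Ndufb2 (0.093) after quantile normalization, for Ndufa4l2 after T247 at the 4-cell stage without the filter (-0.0031), and for Coq7 with arrays of the 8 conditions (2.09 from the 1-cell to the 2-cell stage and -0.27 to the 4-cell stage). With the replicate number as a block, the counts were those without it, such as 76 from GV to MII and 20 for T247 at the 2-cell stage. No call on a named gene changed. Each condition holds every number once, so the LFCs could not change with this block, only their spread. Deviations of same-numbered control arrays from their condition means correlated at -0.05 to 0.35 (median 0.08). The median of -0.04 for different numbers is no separate contrast, since deviations within a condition are tied to each other. Number and slide coincide in the controls, so a shared slide and a shared culture cannot be told apart by this check. The numbers were not taken as pairs.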
